A study of Mus musculus with 72 samples.

Results

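Fatty acid oxidation in mice conceived naturally or by in vitro fertilization (IVF), and in the offspring of IVF males, was followed through 8 genes: the receptor gene Ppara, the carnitine shuttle genes Cpt1a and Cpt2, the mitochondrial enzyme genes Acadl, Acadm and Hadha, the peroxisomal enzyme gene Ehhadh and the hormone gene Fgf21. The genes were taken by symbol, by a rule that uses no measured value but was set with earlier results of these data known, and all 8 were listed in each of the 7 count tables. They are 8 of the 25239 genes in the table of E18.5 testes and 8 of the 35976 genes in each of the other 6 tables. Each gene was compared between IVF and Natural libraries within a table, with most of the account on the livers of the second generation.

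RNA-Seq was performed on 72 libraries from the F1 and F2 generations of a mouse cross. In F1, CF-1 females were either mated in their natural cycle with SJL/B6 males heterozygous for a GFP transgene and carried the embryos without transfer (Natural, called naturals here), or were superovulated to give eggs that were fertilized in vitro with sperm of such males, cultured to blastocysts and transferred to pseudopregnant CF-1 recipients (IVF). The F1 libraries are from testes: 4 naturals and 6 IVF at E18.5, 5 of each group in 12-week-old males, and 4 naturals with 6 IVF in 39-week-old males. In F2, the groups carry the label of the father: natural or IVF F1 males of 12 weeks were bred to CF-1 wild-type dams, so every F2 animal was itself conceived by mating. The F2 animals were 12 weeks old and gave testes (5 Natural and 7 IVF), male livers (5 and 5), female livers (5 and 6) and ovaries (4 and 5). All groups therefore share the CF-1 mothers' strain and, by descent, the SJL/B6 sires and their GFP background, and no group carries a targeted gene. Embryo transfer, superovulation and culture came together in the F1 IVF groups and cannot be told apart. The paper states that F1 pups kept to adulthood were delivered by C-section, later in IVF than in naturals, and fostered. The time of delivery thus also goes with the group in the 12-week and 39-week testes. Animals received chow ad libitum. The study weighed adult F1 males before a fast of some hours. Whether the F2 animals were fasted before their livers were taken, and at which hour of the day, both of which move these genes in the liver, is not given in the sources used here.

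Fatty acids enter oxidation as coenzyme A esters, which the carnitine shuttle carries into mitochondria, where chain-length-specific dehydrogenases and the trifunctional protein shorten them step by step; peroxisomes shorten the longest and the dicarboxylic chains. In the liver the pathway rises with fasting, when fatty acids released from fat activate the nuclear receptor PPAR-alpha. PPAR-alpha then switches on the shuttle and oxidation genes, ketone body synthesis and the secreted hormone FGF21.

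On GRCm38 the 8 genes lie on 8 chromosomes, Ppara at chr15:85734910-85806851, Cpt1a at chr19:3322326-3385735, Cpt2 at chr4:107903982-107923589, Acadl at chr1:66830839-66863309, Acadm at chr3:153922353-153944643, Hadha at chr5:30119423-30154980, Ehhadh at chr16:21761285-21787834 and Fgf21 at chr7:45613890-45615490. Ppara and Cpt1a are on the plus strand and the others on the minus strand. The upstream sequences of 4 of the genes are shown because these genes had the clearest differences in the livers (Acadl and Acadm), hold the hormone (Fgf21) or hold the most of the motifs searched that are marked here (Cpt1a). Each is the 250 bases before the first base of the RefSeq transcript, 5′ to 3′ on the gene's own strand, from RefSeq on GRCm38.p6. Capitals mark AGGTCA (the nuclear receptor half-site), CCAAT and TATAAA on either strand.
Acadl, chr1:66863310-66863559, minus strand: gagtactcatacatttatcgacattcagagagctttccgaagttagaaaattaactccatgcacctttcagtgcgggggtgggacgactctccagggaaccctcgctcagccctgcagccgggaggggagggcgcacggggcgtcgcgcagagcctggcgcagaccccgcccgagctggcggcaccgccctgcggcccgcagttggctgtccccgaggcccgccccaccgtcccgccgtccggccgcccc
Acadm, chr3:153944644-153944893, minus strand: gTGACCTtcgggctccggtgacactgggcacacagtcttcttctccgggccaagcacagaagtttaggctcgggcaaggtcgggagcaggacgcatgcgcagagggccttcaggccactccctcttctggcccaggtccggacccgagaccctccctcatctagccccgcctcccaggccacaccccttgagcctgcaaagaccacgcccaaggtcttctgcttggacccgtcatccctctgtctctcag
Cpt1a, chr19:3323051-3323300, plus strand: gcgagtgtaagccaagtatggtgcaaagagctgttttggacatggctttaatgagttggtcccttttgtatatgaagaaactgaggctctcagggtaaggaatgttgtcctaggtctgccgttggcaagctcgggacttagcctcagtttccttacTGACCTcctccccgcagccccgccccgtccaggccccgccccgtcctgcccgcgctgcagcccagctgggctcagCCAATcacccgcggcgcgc
Fgf21, chr7:45615491-45615740, minus strand: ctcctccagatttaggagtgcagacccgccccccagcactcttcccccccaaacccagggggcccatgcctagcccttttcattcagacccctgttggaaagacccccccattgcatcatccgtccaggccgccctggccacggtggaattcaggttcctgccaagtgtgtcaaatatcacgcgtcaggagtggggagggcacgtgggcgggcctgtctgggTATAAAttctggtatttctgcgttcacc

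AGGTCA, or TGACCT on the other strand, was found in Acadm and Cpt1a, at 249 and 94 bases before the start, and in 14% of 32841 RefSeq promoters of the same length. The direct repeat to which PPAR-alpha binds with its partner RXR was searched as AGGTCANAGGTCA, held by 0.0335% of the promoters, and as AGGNCANAGGNCA, held by 0.338%, on both strands; any hit of the first is also a hit of the second. Neither was in the windows of the 8 genes, which says only that these letters are not there. CCAAT was in Cpt1a at 19 bases and, as ATTGG, in Ehhadh at 38 bases, against 33.9% of promoters. TATAAA was in Fgf21 alone of the 8, at 28 bases, against 12.4%, and GGGCGG, the GC box, was in 7 of the 8 (all but Acadm), against 32.7%. The matches describe the letters only, and no binding was measured in these samples.

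The libraries held between 543745 and 90441392 counts. In male livers the naturals had 10391074 to 44069283 counts and the IVF libraries 543745 to 12624673. In female livers it was the other way round, with 3947645 to 34149676 counts in naturals and 13815244 to 90441392 in IVF. The slope of expression on GC content, relative to the mean natural of the table, was -0.03 to 0.07 log2 units per 10 percentage points of GC in natural male livers and -1.33 to -0.53 in IVF male livers, and -0.13 to 0.30 in natural and 0.71 to 1.12 in IVF female livers. In the testis and ovary tables it stayed between -0.32 and 0.15, but there too some groups did not overlap. In E18.5 testes the slope was -0.045 to 0.063 in naturals and -0.17 to -0.12 in IVF, with 2904727 to 4869139 and 8500054 to 15745480 counts, and in 39-week testes it was -0.13 to 0.13 and -0.32 to -0.14, with 11438213 to 12705316 and 14033176 to 23318391 counts. Ovary libraries held 17372532 to 49192804 counts in naturals and 11489461 to 16553139 in IVF, with overlapping slopes. The liver groups thus differed in GC slope without overlap and in depth with overlapping ranges, in opposite directions in the sexes. The share of counts in the top 10 genes of a library also parted them, at 17.1% to 20.4% in natural and 20.9% to 43.5% in IVF males. In females it was 28.4% to 34.2% in naturals and 22.1% to 24.9% in IVF. Values with the GC trend removed are given beside the calls of the 8 genes that they change. They also stand beside the pathway genes whose log2 fold change the GC correction lowers by over 1.5 times. Calls of the 8 genes that change with the shallow libraries left out are named beside the main values. The tissue labels held: hepatocyte markers summed to 70073 CPM or more in every liver library. Levels are counts per 1000000 counts of a library (CPM, on TMM-scaled library sizes), and between genes the same per kilobase of exon (RPKM).

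In livers Acadl was higher in the livers of F2 IVF males and lower in the livers of F2 IVF females than in naturals, with no overlap of the groups in either sex, and it was the 1 gene of the 8 that passed the test in both. Acadm was lower in IVF female livers, and Cpt2 was slightly higher there. Both of these calls were lost with the GC trend removed, where 1 of the 8 genes passed, against 27.5% of all genes. In male livers 1 of the 8 genes passed an adjusted p of 0.05 in edgeR's quasi-likelihood test, against 34.4% of all 11973 genes tested, and its groups did not overlap, against 27.0% of genes. In female livers 3 of the 8 passed, against 49.0% of 12525 genes, and 2 had groups that did not overlap, against 29.4%. Neither share is above that of all genes. The median log2 fold change (IVF minus Natural) over the 8 genes was -0.09 in males and 0.25 in females, and over all genes tested it was -0.01 in both. In a tissue, fewer cells of a type and less RNA per cell cannot be told apart. The p-values measure the spread between these libraries, whose litters and sires are not labelled. In F2 the group is set by the father, and libraries of a group may share a sire, which the fits do not model.

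**Figure D1:**
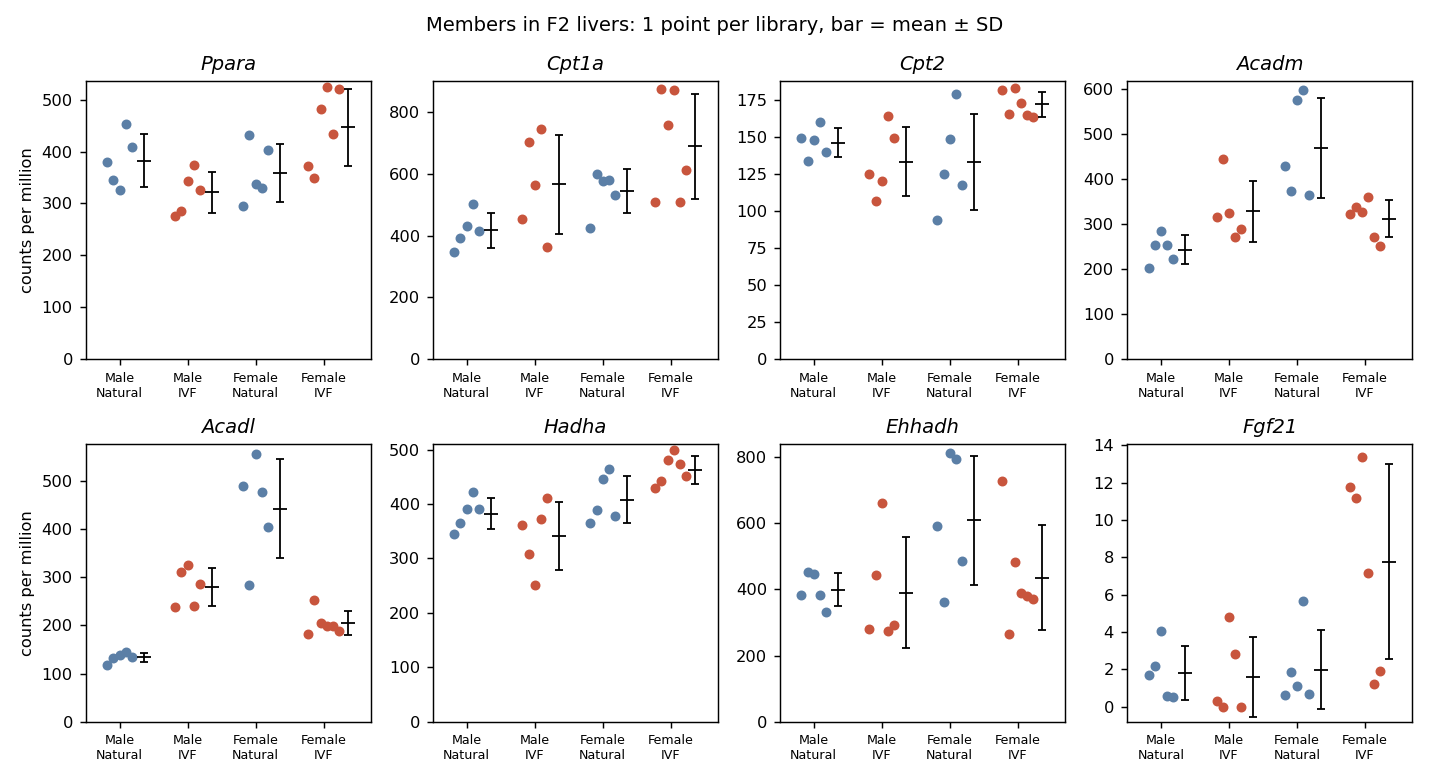
CPM of the 8 genes in each F2 liver library, with the mean and SD of each group (blue, Natural; red, IVF; 5 and 5 males, 5 and 6 females); each panel has its own linear scale. Acadl stands at 117 to 144 CPM in natural males and 239 to 325 in IVF males, and the order is turned in females.

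Ppara, the gene of the receptor itself, was at 379, 344, 325, 454 and 409.6 CPM in natural male livers and at 276, 286, 342, 374 and 327 in IVF male livers. In females it was at 296, 431, 337, 329 and 403 CPM in naturals and 371, 349, 481, 524, 434 and 519.7 in IVF. The groups overlapped in both sexes. The log2 fold change was -0.25 (SE 0.16, adjusted p = 0.230) in males and 0.31 (SE 0.15, adjusted p = 0.0979) in females by edgeR, so the level of the receptor's RNA did not pass the test in either sex. With at least 10 counts required in every library, the male value was -0.46 with an adjusted p of 0.0277, and without natural 2 the female value was 0.41 with an adjusted p of 0.0389. Those were the only passes, in 1 of 21 alternatives in males and 1 of 22 in females. The values ranged from -0.46 to -0.15 in males and from 0.12 to 0.41 in females.

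Cpt1a makes the carnitine palmitoyltransferase of the outer mitochondrial membrane, the step that sets the rate of long-chain fatty acid entry. Its natural male livers were at 347, 392, 430.4, 503 and 414 CPM and its IVF male livers at 455, 703, 564, 746 and 364. IVF male 5 was below 4 of the 5 naturals, and IVF males 2, 3 and 4 were above every natural. It gave a log2 fold change of 0.44 (SE 0.20, adjusted p = 0.0997, edgeR), and without IVF replicate 5 it was 0.57 with an adjusted p of 0.0250. The male value ranged from 0.23 to 0.57 over all alternatives and passed in 1 of 21. In females the naturals were at 425, 601, 578, 582 and 533 CPM and the IVF livers at 509.8, 875, 758, 871, 509 and 614, with a log2 fold change of 0.34 (SE 0.17, adjusted p = 0.114). Cpt1a was thus above 0 in both sexes and passed the test in neither.

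Cpt2, which rebuilds the coenzyme A ester on the inner membrane, was within a narrow range in natural males (149.7, 134, 148, 160.0 and 139.8 CPM). IVF males were at 125, 107, 121, 165 and 149.8 CPM, on both sides of the naturals, with a log2 fold change of -0.12 (SE 0.16, adjusted p = 0.572). Natural females were at 93.9, 125, 149, 179 and 118 CPM, and IVF females stood close together at 182, 166, 184, 173, 165 and 164. Natural 4 reached into the IVF range and the other naturals were below it. The log2 fold change was 0.37 (SE 0.15), and its adjusted p of 0.0488 was just under the threshold. The call was lost with the GC trend removed (0.10, adjusted p = 0.652) and when any one of 10 of the 11 libraries was left out. It was also lost with the replicate block, depth as a covariate, the 1.5-fold limit and libraries of at least 5000000 counts alone.

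Acadl encodes the long-chain acyl-CoA dehydrogenase of mitochondria. In natural male livers it was at 117, 132, 139, 144 and 135 CPM. In IVF male livers it was at 239, 310.3, 325, 240.0 and 286 CPM. The lowest IVF male was well above the highest natural. The means were 133 ± 10.3 CPM (SD, n = 5) and 280.1 ± 39.8 CPM (SD, n = 5), which gave a log2 fold change of 1.06 (SE 0.15, adjusted p = 0.000171, edgeR). Natural female livers held 489, 285, 556, 478 and 405 CPM, and IVF female livers 182, 253, 204, 199, 199.5 and 189. Here the naturals were all above the IVF livers, with natural 2 and IVF 2 nearest to each other. The means were 443 ± 103 CPM (SD, n = 5) and 204 ± 25.2 CPM (SD, n = 6), which gave a log2 fold change of -1.11 (SE 0.16, adjusted p = 6.07e-05). The naturals of the sexes, which lie in separate tables, were further apart than the IVF livers of the sexes.

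The calls for Acadl held under each alternative tried in these livers. With the GC trend removed the log2 fold change was 0.64 in males (adjusted p = 0.00340) and -0.65 in females (adjusted p = 0.00336). Over all alternatives it ranged from 0.64 to 1.12 in males and from -1.21 to -0.63 in females, with a largest adjusted p of 0.0106 and 0.0268. The hepatocyte markers (7 genes, led by Alb) summed to 70073 to 96355 CPM in natural and 88304 to 140432 in IVF males, and to 161229 to 241740 in natural and 103329 to 125318 in IVF females. Alb made most of each sum, with means of 54112 and 82072 CPM in males and 166599 and 89672 in females. The sums moved in the same direction as Acadl in each sex, with overlapping ranges in males. Of the 7 markers 2 passed in males (higher), against 16.1% of genes, and 4 in females (lower), against 23.6%. Their log2 fold changes ran from -0.56 to 0.99 in males and from -0.89 to 0.09 in females. The part of these markers in the result for Acadl was not tested.

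Acadm, the medium-chain acyl-CoA dehydrogenase whose loss is the most common inherited defect of the pathway in humans, moved in the same directions by less. Natural male livers were at 202, 254, 284, 252 and 223 CPM and IVF male livers at 315, 443, 323, 269.8 and 289. IVF 4 was below the highest natural. The log2 fold change was 0.43 (SE 0.17, adjusted p = 0.0607), and DESeq2 gave 0.39 with an adjusted p of 0.0496. Without IVF 4 it was 0.50 (adjusted p = 0.0359) and without IVF 5 it was 0.48 (adjusted p = 0.0470). The male value ranged from 0.21 to 0.50 over all alternatives and passed in 3 of 21. Natural female livers were at 429, 373, 575, 597 and 365 CPM and IVF female livers at 321, 337, 325, 360.4, 272 and 251, and the groups did not overlap, although natural 5 and IVF 4 were close. The log2 fold change was -0.59 (SE 0.16, adjusted p = 0.00654). With the GC trend removed it was -0.38 (adjusted p = 0.0743), and with depth as a covariate -0.31 (adjusted p = 0.148).

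Hadha, the alpha subunit of the mitochondrial trifunctional protein, which carries out the later steps on long chains, had the smallest difference between groups of the 8 in females. Its natural males were at 345, 365, 390.2, 421 and 390.5 CPM and its IVF males at 362, 308, 251, 373 and 412, where the lowest value came from the shallowest library. Natural females were at 365, 389.5, 445, 464 and 377 CPM and IVF females at 429.9, 441, 480.5, 498, 474 and 452. The groups overlapped in both sexes. The log2 fold changes were -0.16 (SE 0.16, adjusted p = 0.479) and 0.18 (SE 0.12, adjusted p = 0.221). The exons of Hadha share 75 bases with Garem2 on the opposite strand, and the other 7 genes share exon bases with no annotated gene.

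Ehhadh, the bifunctional enzyme of peroxisomal oxidation and a strongly PPAR-alpha-dependent gene in rodents, varied widely between animals. Its natural males were at 384, 453, 446, 383 and 332 CPM and its IVF males at 282, 445, 660.5, 275 and 291. In IVF males 3 libraries were below every natural, while the highest value of either group came from IVF 3, which held 274 Ehhadh counts of 543745 in all. Its log2 fold change was -0.05 (SE 0.23, adjusted p = 0.901), and with libraries of at least 5000000 counts alone, which leaves out IVF 2 and IVF 3, it was -0.48 (adjusted p = 0.0171). With depth as a covariate it was -0.64 (adjusted p = 0.0447). The male value ranged from -0.64 to 0.055 over all alternatives and passed in 2 of 21. Natural females were at 593, 363, 812, 794 and 486 CPM, and IVF females at 729.6, 265, 484, 388, 379.6 and 371. The groups overlapped, with a log2 fold change of -0.48 (SE 0.25, adjusted p = 0.124), and it was -0.69 (adjusted p = 0.0174) without IVF 1 and -0.60 (adjusted p = 0.0480) without natural 2. The female value ranged from -0.69 to -0.16 over all alternatives and passed in 2 of 22.

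Fgf21, the fasting hormone of the liver, was the lowest of the genes in livers and the most uneven between animals. Natural males held 27, 44, 70, 29 and 6 counts, or 1.70, 2.17, 4.04, 0.582 and 0.505 CPM. IVF males held 4, 0, 2, 28 and 0 counts, or 0.315, 0, 4.82, 2.81 and 0 CPM, so the highest CPM rests on 2 counts and a count of 0 allows up to 3 counts. Its log2 fold change was -0.75 (SE 0.89, adjusted p = 0.548). With 1 library left out it ranged from -2.61 to -0.21 and did not pass (smallest adjusted p = 0.0744). Natural females held 2, 23, 4, 36 and 21 counts, or 0.610, 1.85, 1.13, 5.68 and 0.678 CPM. IVF females held 182, 210, 287, 116, 120 and 165 counts, or 11.8, 11.2, 13.4, 7.18, 1.21 and 1.93 CPM. IVF females 1 to 4 were above every natural, and IVF 5 and 6, the deepest libraries, were within the natural range. Its log2 fold change was 1.96 (SE 0.79, adjusted p = 0.0604). DESeq2 gave an adjusted p of 0.0290, and without natural 4 the edgeR value was 2.82 (adjusted p = 0.0144). With depth as a covariate it was 2.99 (adjusted p = 0.00161), without IVF 5 it was 2.20 (adjusted p = 0.0182) and without IVF 6 it was 2.17 (adjusted p = 0.0353). The female value ranged from 1.51 to 2.99 over all alternatives and passed in 6 of 21, with a largest adjusted p of 0.225.

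**Figure D2:**
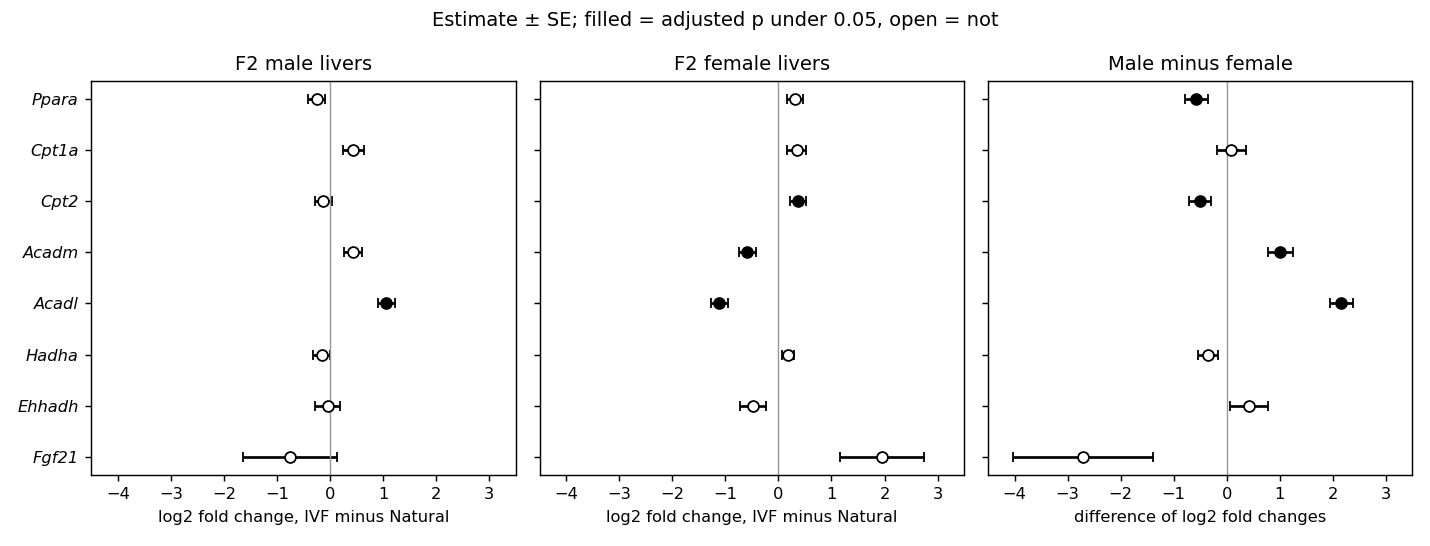
Log2 fold change (IVF minus Natural) of each of the 8 genes in F2 male and female livers, and the difference between the sexes (male minus female), with SE from the edgeR fits; 0 is the vertical line. Acadl is at 1.06 in males and -1.11 in females, and its difference of 2.16 is the most precise among the large ones.

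Whether the sexes differed was tested in 1 fit of all 21 liver libraries, as the IVF minus Natural change in males less that in females. Of the 8 genes 4 passed, against 54.0% of 13073 genes. Acadl differed by 2.16 (SE 0.22, adjusted p = 1.47e-08) and Acadm by 1.01 (SE 0.23, adjusted p = 0.000701), both more positive in males. Ppara differed by -0.57 (SE 0.22, adjusted p = 0.0262) and Cpt2 by -0.50 (SE 0.21, adjusted p = 0.0484), both more negative in males. Cpt2 lost its call when any one of 16 of the 21 libraries was left out, with an adjusted p of up to 0.0978, and with no filter (adjusted p = 0.0512), the replicate block (0.0509) or depth as a covariate (0.220). Ppara lost it without natural male 4 (adjusted p = 0.0544) or natural female 1 (0.0521), with the block (0.0741) and with depth (0.250). Ppara and Cpt2 also lost it with the 1.5-fold limit and with libraries of at least 5000000 counts alone. The difference was -2.71 for Fgf21 (SE 1.31, adjusted p = 0.0887), -0.35 for Hadha (SE 0.19, adjusted p = 0.130), 0.42 for Ehhadh (SE 0.36, adjusted p = 0.328) and 0.09 for Cpt1a (SE 0.27, adjusted p = 0.811). Under the alternatives Fgf21 passed in 3 of 31 and Hadha in 2 of 32. Fgf21 ranged from -4.60 to -2.18 with 1 library left out, and Hadha from -0.67 to -0.12 over all alternatives. With the GC trend removed 2 genes remained called, against 38.3% of all genes in that fit, Acadl at 1.26 (adjusted p = 9.69e-06) and Acadm at 0.57 (adjusted p = 0.0347), while Ppara was at -0.33 (adjusted p = 0.208) and Cpt2 at -0.0058 (adjusted p = 0.987). Acadm was at 0.50 (adjusted p = 0.0801) with the replicate block added to that correction and at 0.62 (adjusted p = 0.0625) with depth as a covariate. The 2 sexes came in separate tables with separate natural libraries, so that sex and table cannot be told apart.

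The changes of the 8 genes were set beside their GC content. Acadl had the lowest GC content of the longest transcript (45.1%), then Ehhadh (47.0%), Acadm (48.0%), Hadha (51.3%), Cpt1a (51.3%), Ppara (51.5%), Cpt2 (52.6%) and Fgf21 (54.5%). The median over protein-coding genes was 48.7%. Over the 8 genes the correlation of GC content with the log2 fold change was -0.80 in males and 0.93 in females, and over all genes tested it was -0.56 and 0.68. These are descriptions across genes that share the same libraries. Acadl, the lowest in GC content, was higher in IVF males and lower in IVF females, while Ehhadh, the next, had values of -0.05 and -0.48 and passed in neither. The cause of the GC slope of the libraries was not tested, and slope and group cannot be told apart in the livers.

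**Figure D3:**
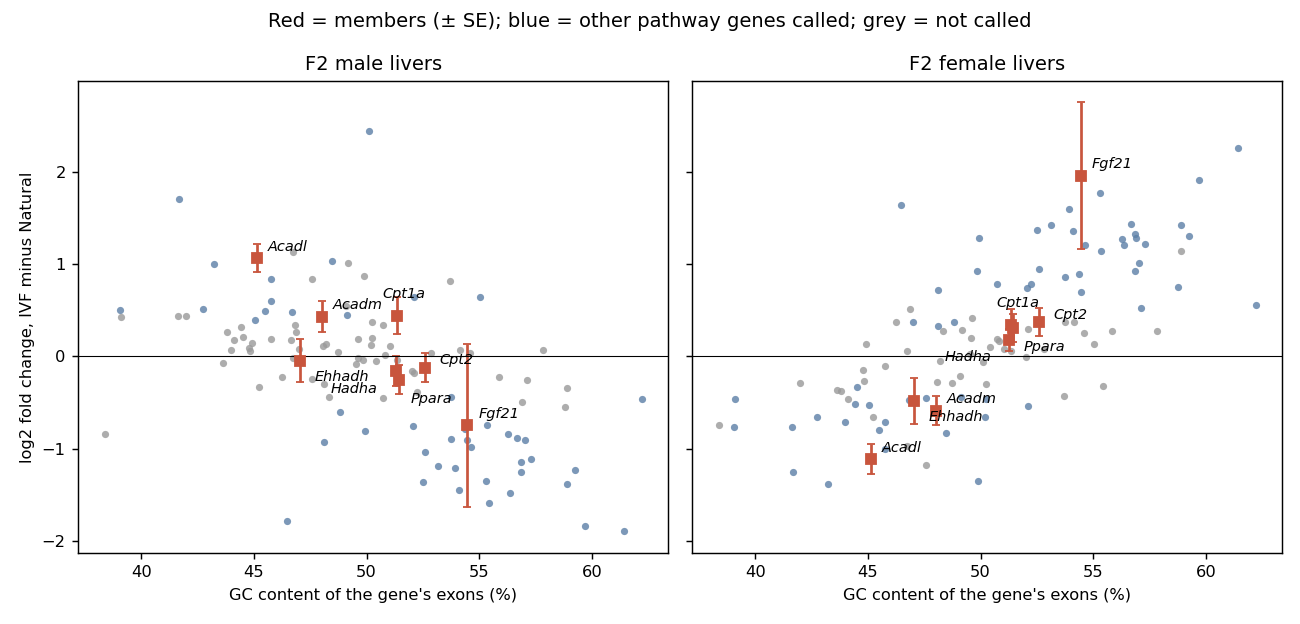
Log2 fold change (IVF minus Natural) against the GC content of the exons for the 8 genes (red, with SE) and the other genes of the pathway (blue, adjusted p under 0.05; grey, not), in F2 male and female livers. The trend falls in males and rises in females, from Acadl at 45.1% GC to Fgf21 at 54.5%. The exons are those of the longest transcript of each gene.

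The rest of the pathway was taken from lists of 108 other genes: the carnitine shuttle, fatty acid uptake and activation, mitochondrial and peroxisomal oxidation, ketone body synthesis, other PPAR-alpha targets, and the PPARs with their partners and the FGF21 receptors. In male livers 102 were tested, of which 14 were higher and 30 lower in IVF, against 16.1% and 18.4% of all genes. In female livers 100 were tested, of which 36 were higher and 21 lower, against 25.4% and 23.6%. The median log2 fold change was -0.02 in males and 0.18 in females. Of the 100 tested in both sexes, 43 were called in males, 57 in females and 39 in both, which is 90.7% of the former and 68.4% of the latter. All 39 went in opposite directions in the sexes. So did 3417 of the 3430 genes called in both sexes among the 11825 tested in both (99.6%), so the turn between sexes is shared with the whole liver tables. With the GC trend removed, 28 of the 102 were called in males and 34 of the 100 in females, against 20.9% and 27.5% of all genes in the same fits.

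**Figure D4:**
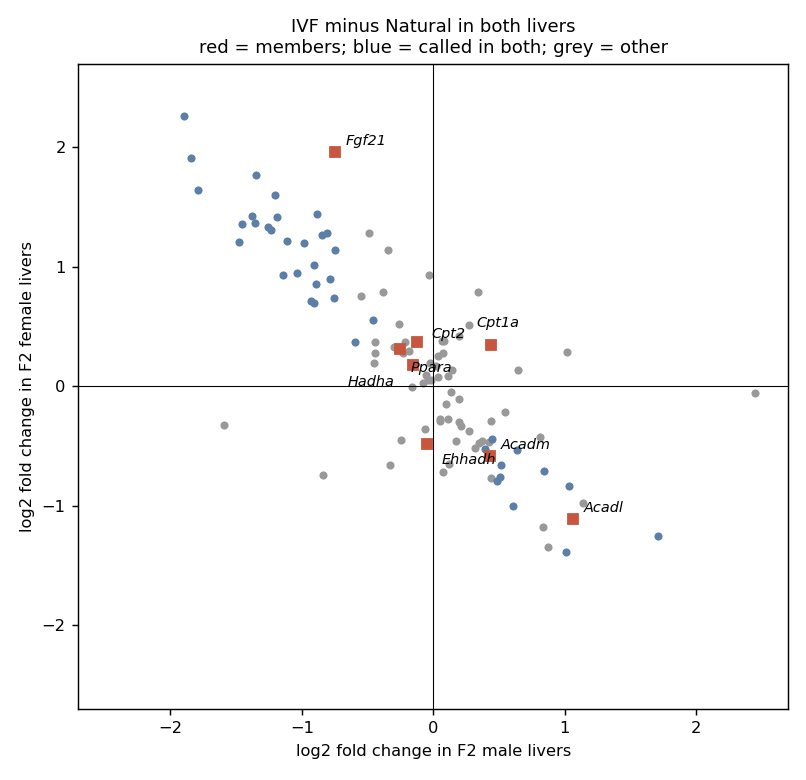
Log2 fold change (IVF minus Natural) in F2 female livers against that in F2 male livers for the 8 genes (red) and the other pathway genes (blue, adjusted p under 0.05 in both sexes; grey, other). The blue points lie in the upper left and lower right corners, as do Acadl, Acadm and Fgf21.

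The steps of the pathway were counted one by one, beside 34.4% of all genes called in males and 49.0% in females, and were not tested against each other. None of the 4 other carnitine shuttle genes tested passed in males, and in females 1 of the 4, Slc22a5, the carnitine transporter, rose (24.1 ± 9.11 CPM in naturals, SD, n = 5, and 46.4 ± 10.8 CPM in IVF, SD, n = 6, log2 fold change 0.93). For ketone body synthesis, 1 gene was higher, 1 lower and 2 neither in each sex. The male count of called genes moved in 16 of 21 alternatives, with a range of 1 to 2, and the female count ranged from 1 to 3. For uptake and activation, 4 genes were higher, 3 lower and 4 neither in males, and 4, 5 and 2 in females. Under the alternatives 2 to 7 were called in males (4 to 6 with 1 library left out) and 4 to 9 in females. Slc27a5, the bile acid and very long-chain acyl-CoA synthetase of the liver, fell by 1.19 on the log2 scale in males (adjusted p = 0.000827) and rose by 1.42 in females (adjusted p = 3.05e-05). Slc27a4 went the same ways (-1.26 and 1.33), Slc27a2 rose in males (0.64) and Fabp1, the abundant fatty acid binding protein, fell by 1.01 in females, from 8597 to 4283 CPM. Slc27a4 was at -0.67 and 0.60 and Fabp1 at -0.59 with the GC trend removed.

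Among mitochondrial oxidation genes, 2 were higher, 6 lower and 12 neither in males, and 8, 5 and 7 in females. Under the alternatives 3 to 8 were called in males (5 to 8 with 1 library left out) and 5 to 15 in females (10 to 15). Acads and Acadvl went against Acadl. Acads, for short chains, was at 207 ± 29.9 CPM (SD, n = 5) in natural and 55.9 ± 20.1 (SD, n = 5) in IVF males, which gave a log2 fold change of -1.84 (adjusted p = 7.63e-05), and at 47.3 ± 10.8 and 178 ± 45.7 CPM in females, a change of 1.91 (adjusted p = 1.33e-05). Acadvl, for very long chains, fell by 0.89 in males and rose by 0.86 in females. Acad10, a less studied relative, changed by -1.36 and 1.37. The GC content of Acads was 59.7% and of Acadvl 53.7%, against 45.1% of Acadl. Hadhb, the partner subunit of Hadha, had values of 0.42 in males and -0.46 in females, where it passed the test. After removal of the GC trend Acads was at -0.98 in males and 0.94 in females and Acadvl at -0.55 and 0.44.

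Of peroxisomal genes 2 were higher, 7 lower and 9 neither in males, and 7, 4 and 7 in females. The thiolase genes Acaa1a (-1.35, adjusted p = 0.000411) and Acaa1b (-1.38, adjusted p = 0.000152) fell in males, and their sequences are close enough for reads to be split between them. Acaa1a rose by 1.77 in females. Phyh, which starts the oxidation of phytanic acid, rose by 0.84 in males. The values with the GC trend removed were -0.86 and 1.18 in males and females for Acaa1a, and -0.55 for Acaa1b and 0.47 for Phyh in males.

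Of other PPAR-alpha targets, 2 were higher, 5 lower and 14 neither in males, and 6, 1 and 12 in females. Creb3l3, a transcription factor that acts with PPAR-alpha on Fgf21, fell by 0.85 in males and rose by 1.27 in females, and Mgll, the monoacylglycerol lipase, changed by -0.74 and 1.14. Gpd1 (-1.15) and the lipid droplet gene Plin2 (-0.76) fell in males. After removal of the GC trend Creb3l3 was at -0.23 in males and 0.58 in females, Mgll at -0.24 and 0.54, and Gpd1 at -0.47 in males. Retsat rose by 1.28 and Cyp4a32 fell by 1.35 in females, and Cyp4a32 is a member of a family of near-identical genes. A further 4 targets, picked after their values were seen, passed in neither sex and do not stand for the list counted above. Cyp4a10 was at 0.84 (SE 0.67) in males and -1.18 (SE 0.62) in females, and Cyp4a14 at 0.19 (SE 0.85) and -0.11 (SE 0.63). Pdk4 was at 0.14 (SE 0.75) and 0.13 (SE 0.77), and Vnn1 at -0.33 (SE 0.58) and -0.66 (SE 0.35).

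Of the PPARs, their partners and the receptors, 3 were higher, 8 lower and 13 neither in males, and 9, 5 and 10 in females. Rxrb, a partner of the PPARs, was at 38.0 ± 3.64 CPM (SD, n = 5) in natural and 11.3 ± 4.81 CPM (SD, n = 5) in IVF males (-1.90, adjusted p = 4.91e-05), and changed by 2.26 in females (adjusted p = 1.58e-05). Sirt3, the mitochondrial deacetylase, changed by -1.79 and 1.64, and Mlycd, which lowers the malonyl-CoA that inhibits CPT1A, by -1.24 and 1.31. Ppargc1a, the coactivator induced on fasting, went the other way, 1.71 in males (adjusted p = 0.000370) and -1.25 in females (adjusted p = 3.64e-05). Rxrb was at -0.94 and 1.16, Mlycd at -0.40 and 0.36, and Ppargc1a at 1.11 and -0.54 with the GC trend removed. Klb, the co-receptor of FGF21, had values of -0.08 and 0.03 and passed in neither sex. Acsf2 and Acad12 also fell in males with no overlap, and in females Acot8 and Ech1 rose and Acsl3 and Acadsb fell. Of these, with the GC trend removed, Acsf2 was at -0.50 (from -0.91), Ech1 at 0.41 (from 0.90), Acsl3 at -0.80 (from -1.38) and Acadsb at -0.023 (from -0.66). The rule for naming took up to 4 genes of smallest adjusted p from each list in each sex, among those that passed with groups that did not overlap. It took 21 of the other pathway genes in males and 22 in females, and the 14 taken in both went in opposite directions. With the GC trend removed 16 of the 21 and 20 of the 22 kept their call, and none turned sign. Creb3l3, Gpd1, Mgll and Mlycd were among those that lost it in males, and Acadsb in females. Under the GC correction with the replicate block, 14 of the 21 and 16 of the 22 kept it, and the further losses were Acad12 and Phyh in males and Acadvl, Acsl3, Mlycd and Slc22a5 in females. With depth as a covariate Acad12, Acsf2, Mgll and Slc27a2 lost it in males, and none of the 22 in females. Hadhb, Cyp4a10, Cyp4a14, Pdk4, Vnn1 and Klb were named for their known roles after their values were seen.

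Genes of feeding state and of the daily clock were read beside these results. The shares of all genes called, 34.4% in males and 49.0% in females, stand beside these counts. Of the fasting genes 1 of 8 passed in males (lower) and 2 of 7 in females (higher), of the feeding genes 3 of 7 (1 higher, 2 lower) and 3 of 8 (higher), and of the clock genes 4 of 13 (3 higher, 1 lower) and 4 of 13 (2 each way). The summed fasting genes, led by Pck1, ranged from 1657 to 4992 CPM in natural and 1802 to 8747 in IVF males, and from 2782 to 5408 and 1749 to 6590 in females. The ranges overlapped in each sex, as did those of the summed feeding genes, led by Scd1 (2886 to 7637 and 741 to 7722 in males, 1179 to 2010 and 503 to 3577 in females) and of the clock genes. Single clock genes had log2 fold changes from -1.61 to 1.85 in males and from -0.97 to 1.48 in females. A sum hides opposite changes, so that of the clock genes does not show whether the hour was alike. Erythroid markers summed to 456 to 754 CPM in natural and 153 to 376 in IVF females, without overlap, and overlapped in males. Of the Kupffer cell markers 3 of 6 were higher in IVF males, against 16.1% of genes, and 1 of 6 was lower in IVF females, and their sums overlapped (106 to 189.6 CPM in natural and 111 to 228 in IVF males, 119.7 to 251 and 115 to 235 in females). Of the stellate cell markers, led by Dcn, 1 of 5 was higher in IVF males, and 1 was higher and 3 were lower in IVF females, against 25.4% and 23.6% of genes. Their sums also overlapped, at 168 to 240.1 CPM in natural and 223 to 282 in IVF males and at 322 to 382 and 232 to 339.8 in females. Adipocyte markers were at most 6.91 CPM in any liver, with Lep at 0 throughout, and summed spermatid markers reached 109.5 CPM in 1 natural male liver, with a median of 14.2 CPM over natural males and at most 3.51 CPM in IVF males. The part of these markers in the results was not tested.

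Over 20 liver libraries of at least 1000000 counts, with the mean of each group removed, the highest correlations of log2 CPM among the 8 were those of Cpt2 with Hadha (0.76), Acadm with Acadl (0.64) and Acadm with Ehhadh (0.61), and the lowest that of Ppara with Acadl (-0.48). Of 11825 genes, the one most like each was Rab43 for Ppara (0.80), Lpgat1 for Cpt1a (0.88), Hsf1 for Cpt2 (0.91), Abcb4 for Acadm (0.88), Shfm1 for Acadl (0.93), Rpn2 for Hadha (0.82), Med7 for Ehhadh (0.89) and Itih3 for Fgf21 (0.87). The next were Tef, Fads2, Rbpj, Akap9, Ssb, Mrps18a, Pon2 and Fga, at 0.80 to 0.92. These are descriptions, since the points share library depth and quality. With the shallowest library included the first gene was the same for Cpt1a, Acadm and Acadl only.

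Outside the liver none of the 8 genes passed the test. By edgeR, 0 of 8 were called in F2 testes (1.61% of all genes), in E18.5 testes (1.17%), in 12-week testes (0.746%) and in 39-week testes (0.00996%), and 0 of 7 in ovaries (0.00%). DESeq2 called none of them either. At an unadjusted p under 0.05 there was 1 gene at E18.5 (Cpt2, 17.7% of all genes), 1 at 12 weeks (Acadm, 12.9%), 1 in ovaries (Acadm, 10.6%) and 0 in F2 testes (13.9%) and at 39 weeks (10.5%). Fgf21 was left out of the ovary test by the filter on low counts, with 0 to 4 counts in each ovary library. The log2 fold changes lay between -0.04 and 0.23 in F2 testes, -0.24 and 0.27 in ovaries, -0.72 and 0.06 in E18.5 testes, -0.18 and 0.43 in those of 12-week-old and -0.27 and 0.58 in those of 39-week-old males. The opposite liver changes of Acadl were thus not seen in the gonads of the same generation, where it was at 0.01 (SE 0.13) in testes and 0.03 (SE 0.08) in ovaries, which differ from the liver in tissue and library at once.

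Some of these values stood apart without passing the test. Acadm in ovaries was at 96.8, 93.3, 89.8 and 100.1 CPM in naturals and at 105, 109, 118, 105 and 103 in IVF. The groups did not overlap, as for 3.64% of genes, and the log2 fold change was 0.18 (SE 0.07, adjusted p = 0.421). Ehhadh in 39-week testes was at 0.911 to 1.13 CPM in 4 naturals and at 1.24 to 1.87 CPM, with a median of 1.51, in 6 IVF testes, from 10 to 14 and 22 to 32 counts. These groups did not overlap either, as for 3.32% of genes, with a log2 fold change of 0.58 (SE 0.31, adjusted p = 0.532). In 12-week testes Acadm was at 10.6, 12.6, 15.7, 12.6 and 10.8 CPM in naturals and at 12.8, 21.0, 14.2, 15.6 and 20.2 in IVF, which overlap (0.43, SE 0.15, adjusted p = 0.221). Cpt2 at E18.5 was at 54.7, 50.5, 54.3 and 47.3 CPM in naturals and at 37.9 to 50.7 in IVF, with a log2 fold change of -0.26 (SE 0.10, adjusted p = 0.195).

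In E18.5 testes Ehhadh was at 10.9, 4.10, 3.16 and 5.99 CPM in naturals and at 3.78 to 5.77 in IVF. Natural 1 stood above all others, and the same library held 488 CPM of summed hepatocyte markers, where the median of the naturals was 24.5 CPM and the IVF testes held 16.3 to 39.4 CPM. Ehhadh had a log2 fold change of -0.38 (SE 0.32, adjusted p = 0.563) with that library and 0.09 (adjusted p = 0.904) without it. The part of other cells in that library was not tested.

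Across tissues the genes differed in where they were used, with levels given as RPKM. The tables were scaled separately, so these levels are set side by side and not tested. Hadha was the most even, at 84.9 to 115 RPKM in the 4 liver groups, 89.4 and 96.2 in ovaries, 76.6 to 81.6 in adult testes and 45.9 and 48.3 at E18.5, and only the E18.5 libraries were outside the range of the others. Cpt2 was at 56.1 to 72.6 in livers, 36.2 and 42.9 in ovaries, 33.8 to 40.7 in adult testes and 18.3 and 21.8 at E18.5, and only the E18.5 libraries stood apart from the others. Cpt1a was as high in ovaries (98.4 and 117) as in livers (96.7 to 159.7), at 37.4 and 37.8 at E18.5 and at 8.67 to 10.6 in adult testes.

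Acadl and Acadm shared an order: highest in livers (69.7 to 231 and 119 to 228 RPKM), then ovaries (43.7 and 44.6, and 46.4 and 52.6), E18.5 testes (28.0 and 29.9, and 25.3 and 25.7) and adult testes (6.43 to 8.34, and 6.09 to 8.19). For both genes the libraries of these 4 kinds of tissue did not overlap. Ppara was at 90.8 to 126 in livers, 6.66 and 7.89 in ovaries, 6.18 and 6.46 at E18.5 and 2.04 to 2.96 in adult testes, and ovary and E18.5 testis did not part. Ehhadh was high in livers, at 131 to 204, and low elsewhere, at 2.59 and 3.13 in ovaries and 0.343 to 2.03 in testes, where E18.5 testes overlapped with both. Fgf21 was low throughout, at 1.67 to 8.17 in livers, 0.882 to 2.27 in testes and 0.0286 and 0.0520 in ovaries, and livers and testes did not part. Within livers of naturals, Ehhadh was the highest of the 8 in males (134 ± 16.8 RPKM, SD, n = 5), where Acadm (119 ± 15.3) and Ppara (108 ± 14.5) followed with overlapping ranges. In natural females Acadl (231 ± 53.7), Acadm (228 ± 54.3) and Ehhadh (204 ± 65.3) led, also with overlapping ranges.

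**Figure D5:**
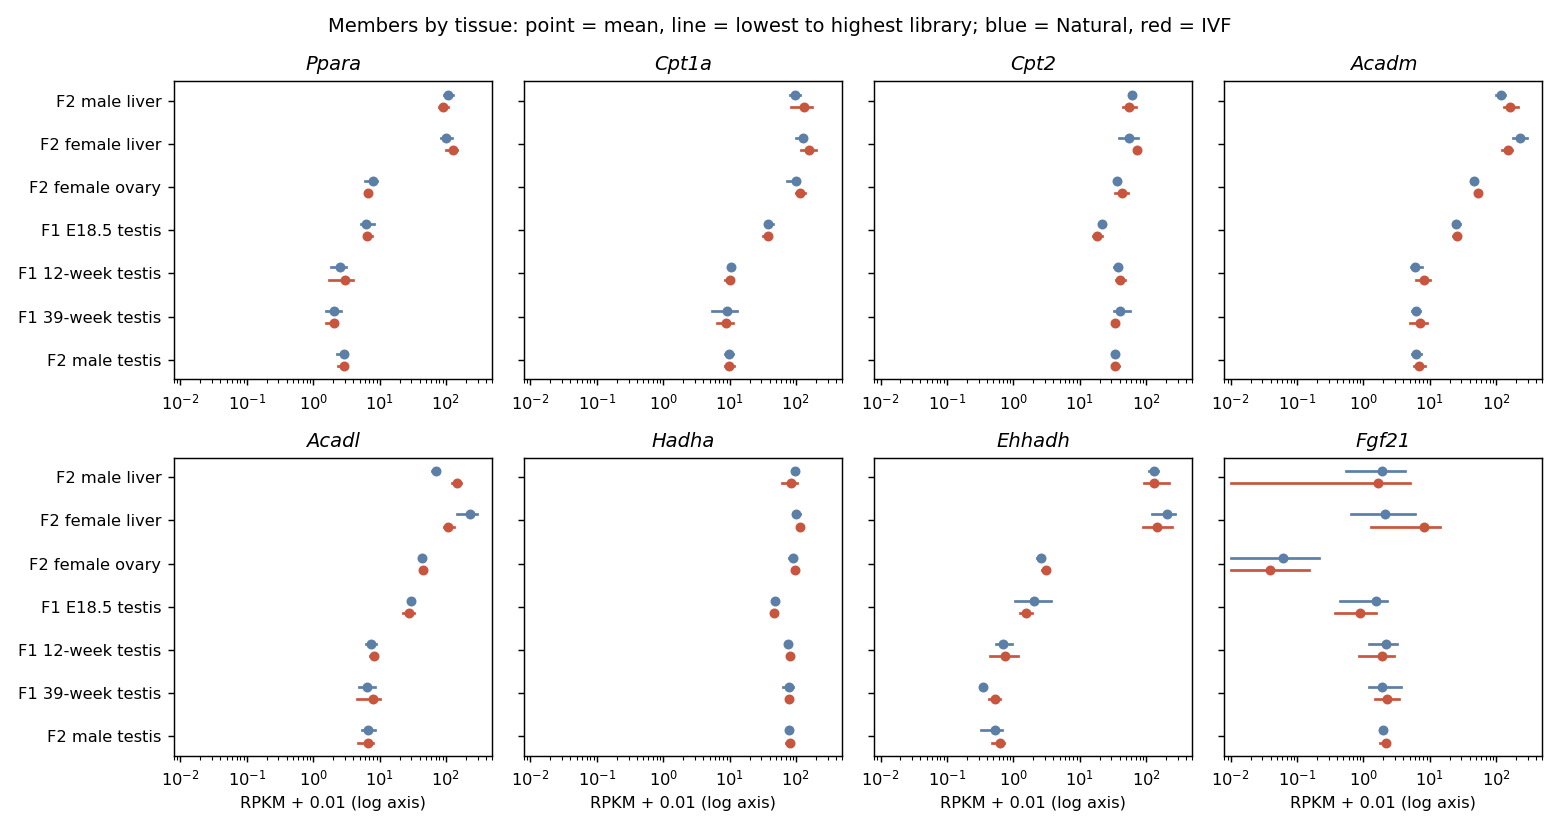
Mean RPKM of the 8 genes in the 14 groups, on a log scale where the lowest group means of Fgf21 are in ovaries. Hadha is nearly level across tissues, and Ehhadh falls from 131 to 204 in livers to 0.343 to 3.13 elsewhere.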

How the data were processed

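RNA-Seq of 72 libraries was used, each grouped by its label; the label counts differ from the n of the series' design text for female livers. The authors made stranded mRNA libraries (KAPA), and per the submitters' processing notes used Trimmomatic 0.32, STAR 2.3.0e, featureCounts 1.5.0 and DESeq2 with build mm10. The deposited values are raw counts of reads per gene symbol, whole numbers without normalization. The strand setting of the counting is not given in the sources used here. Low counts (1 to 20) were even in 60.0% to 94.3% of cases by library. In male livers the share was 76.9% to 80.2% in naturals and 82.8% to 94.3% in IVF, without overlap. Female livers were at 79.1% to 89.8% in naturals and 71.8% to 81.0% in IVF, which overlap. E18.5 testes were at 68.0% to 75.7% in naturals and 60.0% to 62.7% in IVF, without overlap. Whether both mates of a pair were counted was not tested. If they were, counts are fewer independent fragments than they appear. Floors cover counting error only.

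Each table was fitted as a whole with edgeR 4.0.16 in R 4.3.3: filterByExpr by group (minimum count 10), TMM, robust quasi-likelihood fits, the quasi-likelihood F test (two-sided) for IVF minus Natural without a replicate block, and Benjamini-Hochberg adjustment over all genes tested. A gene was called at an adjusted p under 0.05, with no fold limit. The sexes were compared by an interaction term over all livers. The test was tried on simulated counts. Lengths are those of all GENCODE M21 exons of a gene, and GC content is that of its longest GENCODE M21 transcript. Log2 CPM used a prior count of 2. Figures were drawn with matplotlib 3.10.9 in Python 3.11.15.

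The 8 genes and all lists were chosen with earlier results of these data known. Named were the 8 genes and, per liver and pathway list, up to 4 called genes of smallest adjusted p whose groups did not overlap, plus the genes most like each of the 8. Values of some single genes that met this rule are not reported here, while the counts over lists include them. Alternatives were the DESeq2 1.42.0 Wald test, DESeq2 size factors, no filter, a minimum of 10 counts in each library, a 1.5-fold limit, a block by replicate number, the GC trend (lowess, span 0.3) removed from each library, both together, depth as a covariate, counts halved, and each library left out. Libraries of at least 5000000 counts alone, and the closest replicate libraries summed, were chosen after seeing the data.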

Additional observations from a re-analysis of the deposited data

Results flagged for a closer look

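In 4 of the 8 genes, against 54.0% of all 13073 genes tested, the difference between IVF and Natural differed between male and female livers by the test of the interaction: Acadl by 2.16 and Acadm by 1.01 on the log2 scale (more positive in males), and Ppara by -0.57 and Cpt2 by -0.50 (more negative in males), with adjusted p-values of 1.47e-08, 0.000701, 0.0262 and 0.0484 from edgeR. With the GC trend removed Ppara (-0.33, adjusted p = 0.208) and Cpt2 (-0.0058, adjusted p = 0.987) did not pass.

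Single libraries stood far from the others of their group 5 times among 112 gene and group pairs, where chance flags about 1 in 20 groups, or 5.6. Acadl was highest in female liver IVF 2, at 253 CPM against 182 to 204 CPM in the others. Fgf21 was highest in female liver Natural 4, at 5.68 CPM against 0.610 to 1.85 CPM. In ovaries Fgf21 was at 0.198 CPM (4 counts) in Natural 2 and at 0.136 CPM (2 counts) in IVF 1, with 0 in the others of each group. In 39-week testes Fgf21 was at 3.49 CPM in Natural 2 against 1.13 to 1.37 CPM.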

How the results depend on the processing

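Under the DESeq2 Wald test, at least 10 counts in every library, depth as a covariate and libraries of at least 5000000 counts alone, 2 of the 8 genes were called in male livers in place of 1, and 1 to 3 with 1 library left out (3 without IVF 5, where Acadm and Cpt1a joined Acadl). In female livers 1 of 8 was called in place of 3 with the GC trend removed, with or without the block, 2 with depth as a covariate (Acadl, which is among the 3, and Fgf21), and 2 to 4 with 1 library left out (4 without Natural 2, where Ppara and Ehhadh joined and Cpt2 left, and without Natural 4, where Fgf21 joined). For the difference between sexes 2 genes were called in place of 4 with a 1.5-fold limit, the replicate block, the GC trend removed, depth as a covariate or the deeper libraries alone, 1 with the GC trend removed and the block, and 2 to 5 with 1 library left out. Among the other pathway genes 44 were called in males, and under the alternatives 29 at 10 counts (25 of them among the 44), 28 with the GC trend removed (26), 28 with the block too (23) and 23 with depth (22). In females 57 were called, and 34 with the GC trend removed (32 of them among the 57) and 24 with the block too (23). Over all alternatives, 5 to 10 peroxisomal genes were called in males and 4 to 12 in females. For other PPAR-alpha targets it was 3 to 8 and 5 to 9. For the PPARs, partners and receptors it was 6 to 12 and 5 to 15, and for the carnitine shuttle 0 and 0 to 2. Acadl kept its calls in livers throughout. The other counts over the 8 genes were 0 throughout.

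Same-numbered libraries did not regularly deviate together (r from -0.03 to 0.03 in male and -0.22 to 0.17 in female livers). In 39-week testes r was -0.23 to 0.30, and in the remaining gonads -0.08 to 0.03. Natural female liver 5 and 39-week Natural 4 were most like the IVF library of their own number, and no other natural was. The numbers were thus not taken as a pairing. With the replicate block 1 gene was called in male livers, 3 in female livers (Fgf21, adjusted p = 0.0102, in place of Cpt2, adjusted p = 0.0690) and 36 other pathway genes in males. The closest replicate libraries were F2 testis IVF 3 and 4 (chi-square per gene 2.78), F2 testis Natural 1 and 2 (3.53) and 39-week Natural 1 and 2 (3.03). Counts may hold both mates of a pair, so these values do not by themselves show a difference beyond sampling noise. Summed, these libraries gave 0 calls.

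Signs turned only for values that had not passed a test. In male livers Cpt2 was at 0.098 with the GC trend removed, 0.092 with the block too, 0.034 with depth and 0.018 in the deeper libraries, Hadha at 0.087 with depth and 0.016 in the deeper libraries, and Ehhadh at -0.31 to 0.055 with 1 library left out. Between sexes Cpt1a was at -0.24 (10 counts), -0.041 (depth) and -0.041 to 0.21 (1 left out), and Ehhadh at -0.21 (GC), -0.26 (GC and block), -0.47 (depth) and -0.14 (deeper libraries). In F2 testes Ppara was at 0.080 (depth), Cpt1a at 0.019 (IVF 3 and 4 summed), Cpt2 at -0.0079 (block), -0.0056 (GC) and -0.020 (both), Acadm at -0.071 (depth), and Acadl at -0.026 (block), -0.0086 (GC and block), -0.28 (depth) and -0.037 (Natural 1 and 2 summed). At E18.5 Ppara was at -0.016 (block) and -0.18 (depth), Cpt1a at 0.017 (GC) and Acadm at -0.024 (block), -0.0062 (GC) and -0.053 (both). At 39 weeks Ppara was at -0.010 with DESeq2 and -0.0089 with its size factors, Cpt1a at 0.032 (GC and block) and 0.15 (depth), Hadha at 0.018 (GC) and 0.044 (both), and Fgf21 at -0.10 (depth). With 1 library left out the ranges were, in F2 testes, -0.12 to 0.0037 for Ppara, -0.049 to 0.047 for Cpt1a, -0.030 to 0.030 for Cpt2 and -0.053 to 0.11 for Acadl, in ovaries -0.012 to 0.064 for Acadl, at E18.5 -0.0066 to 0.23 for Ppara, -0.063 to 0.077 for Cpt1a, -0.020 to 0.088 for Acadm and -0.60 to 0.094 for Ehhadh, at 12 weeks -0.12 to 0.24 for Ehhadh and -0.37 to 0.014 for Fgf21, and at 39 weeks -0.11 to 0.14 for Ppara, -0.24 to 0.18 for Cpt1a and -0.13 to 0.041 for Hadha. The cause of these turns was not tested. Fgf21 rests on few reads, with 0 to 70 counts in male livers.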
